A study of Mus musculus with 12 samples.

Results

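The Nodal, Lefty and Cripto signalling genes described here are 10 listed genes: Tdgf1, Nodal, Lefty1, Lefty2, Gdf3, Acvr2b, Acvr1b, Smad2, Smad3 and Foxh1. Each was taken from the array table by its symbol, and each had a single probe set with that symbol alone, so that the set holds 10 of the 19938 genes measured. The rule that names the genes uses no measured value, but the genes were chosen with earlier results of these data known. The study profiled mouse cells on 12 arrays in 4 groups of 3, and asked how cells that lack CD47 compare with wild type cells, with aggregates made from them and with an embryonic stem cell line. CD47 is a cell surface receptor for thrombospondin-1 and a ligand of SIRP alpha.

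The group WT_EC is wild type lung endothelial cells of C57Bl/6 mice, and null_EC is CD47 null lung endothelial cells of the same strain; both were grown in the endothelial growth medium EGM2. The group null_EB also carries the CD47 null genotype on C57Bl/6. It holds the embryoid bodies, here free aggregates of cells, that formed in basal endothelial medium with no serum: CD47 null endothelial cells that had been passaged for 6 months were seeded in it, and aggregates were seen at 24 to 36 h. The group ESC is the established embryonic stem cell line V6.5 in medium with 15% fetal bovine serum and LIF, a cytokine that keeps mouse stem cells undifferentiated, at 1000 IU/ml. The labels give no strain or CD47 genotype for V6.5, no passage for WT_EC and null_EC, no age of the animals, and no statement of how many animals or isolates the endothelial cells came from. Cell type, medium and growth form therefore cannot be told apart in comparisons with ESC. In null_EB against null_EC, growth form, medium and the 6 months of passage, labelled for null_EB alone, cannot be told apart. Against WT_EC the CD47 genotype of null_EB differs as well. Nothing says that replicates came from separate cultures, so the p-values measure the spread between these samples, which may be technical.

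Nodal is a secreted signal of the TGF-beta family that binds a type II activin receptor and a type I activin receptor, with the membrane-anchored co-receptor Cripto, the product of Tdgf1. The activated type I receptor phosphorylates SMAD2 and SMAD3, which enter the nucleus and, with partners such as FOXH1, switch on target genes that include Nodal itself and its secreted inhibitors Lefty1 and Lefty2. The pathway is known for its activity in pluripotent cells and for the formation of mesoderm and endoderm in the early embryo. Nodal and Cripto are not typical products of adult lung endothelium, whereas the receptors and SMADs also serve activin and TGF-beta and are found in most cells.

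From the RefSeq promoter table (build GRCm38.p6) 5 of the 10 genes were used here, Tdgf1, Nodal, Acvr2b, Acvr1b and Smad3. The promoters of the other members were not examined. The stretches shown are the 250 bases before the annotated start on the strand of the gene. They are given for Tdgf1, the gene with the largest difference between groups among the 10, for Nodal, and for Smad3, which was lower in ESC. Capitals in the Tdgf1 sequence mark a stretch of 19 bases that stands in 2 adjacent copies.
Tdgf1, chr9:110946159-110946408, minus strand: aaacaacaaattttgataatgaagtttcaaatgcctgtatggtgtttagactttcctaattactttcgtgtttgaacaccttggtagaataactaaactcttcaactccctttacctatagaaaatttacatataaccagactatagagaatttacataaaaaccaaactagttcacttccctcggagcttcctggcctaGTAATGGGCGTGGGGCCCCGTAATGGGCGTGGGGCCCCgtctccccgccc
Nodal, chr10:61417722-61417971, plus strand: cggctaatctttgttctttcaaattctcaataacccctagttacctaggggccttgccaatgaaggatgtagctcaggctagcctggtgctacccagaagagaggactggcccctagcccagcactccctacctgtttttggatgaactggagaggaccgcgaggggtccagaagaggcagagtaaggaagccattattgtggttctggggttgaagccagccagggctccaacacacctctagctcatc
Smad3, chr9:63757995-63758244, minus strand: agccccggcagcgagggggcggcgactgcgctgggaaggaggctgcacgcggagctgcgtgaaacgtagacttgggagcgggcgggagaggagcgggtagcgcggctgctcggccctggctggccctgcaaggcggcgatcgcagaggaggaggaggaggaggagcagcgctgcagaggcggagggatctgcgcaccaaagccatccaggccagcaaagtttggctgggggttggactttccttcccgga
The copies in the Tdgf1 promoter start 50 and 31 bases before the start, and 1.23% of the 32851 promoters in the table hold a repeat at least as long. Each copy contains the letters GGGCGTGG, searched as a Klf-type motif, 45 and 26 bases before the start; 4.79% of all promoters hold these letters on either strand. The base composition differed between these genes. The GC content was 42.0% for Tdgf1 and 53.2% for Nodal, against a median of 52.4% over all promoters, and 69.2% for Smad3, 72.8% for Acvr2b and 78.8% for Acvr1b. CpG dinucleotides numbered 7 for Tdgf1, 3 for Nodal, 22 for Smad3, 24 for Acvr2b and 42 for Acvr1b, against a median of 6. Thus the promoters of the receptors and of Smad3 were richer in CpG than those of Tdgf1 and Nodal. The letters CAGAC, a SMAD-binding element, were found 113 bases before the start of Tdgf1 and, on the other strand, 233 bases before that of Acvr2b, and 42.2% of all promoters hold them. The FOXH1 letters TGTGGATT (0.718% of promoters), the octamer ATGCAAAT (1.6%) and TATAAA (12.4%) were searched on both strands too and were found in none of the 5 windows. These matches describe letters only.

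Values are log2 signals, so that 1 unit is a 2-fold difference, and group values are means ± SD with n = 3. Levels are compared between groups for 1 gene and never between genes, whose probe sets bind differently. The array medians lay between 7.66 and 7.75. A mean under 8.01, the median of all values tested, is called low signal here, since the files hold no detection calls. The WT_EC arrays spread most, with a median SD of a gene of 0.213 against 0.0652 to 0.0847 in the other groups and correlations between replicates of 0.954 to 0.968 against at least 0.994. The markers of embryonic stem cells fitted the label of ESC, where all 8 were higher than in each other group and the median of the list lay between 11.37 and 11.66 on each array, against 6.40 to 6.92 elsewhere. The 8 endothelial markers did not run together. Their median was 7.59, 6.91 and 8.02 on the 3 WT_EC arrays, 7.16 to 7.27 in null_EC, 7.02 to 7.10 in null_EB and 7.17 to 7.31 in ESC, so the median did not set the endothelial groups apart. Kdr, the main VEGF receptor gene, did so: it stood at 8.51, 8.61 and 9.35 in WT_EC, 10.83, 10.74 and 10.52 in null_EC, 7.26 to 7.40 in null_EB and 6.84 to 6.98 in ESC, and it was the only marker called between null_EC and WT_EC (log2 1.88, adjusted p = 0.000108). Cdh5, which encodes VE-cadherin, ran the other way, at 9.10, 6.85 and 9.52 in WT_EC and 7.27, 7.11 and 7.09 in null_EC, and Pecam1 and Tek had their highest means in ESC (8.86 and 8.67). The median of the mesothelial markers lay between 10.59 and 11.49 on the arrays of WT_EC, null_EC and null_EB and between 7.67 and 7.83 in ESC. Single markers ran wider, such as Muc16 at 6.22 to 8.35 in WT_EC. For the fibroblast markers the median was 10.71 to 12.17 in WT_EC, 10.82 to 11.23 in null_EC, 10.31 to 10.58 in null_EB and 9.80 to 9.93 in ESC. The leukocyte markers had medians of 8.16, 6.80 and 9.98 on the WT_EC arrays. Elsewhere these were 6.90 to 7.01 (null_EC), 6.78 to 6.91 (null_EB) and 6.76 to 6.86 (ESC). The part of these other cell types in the results was not tested.

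**Figure D1:**
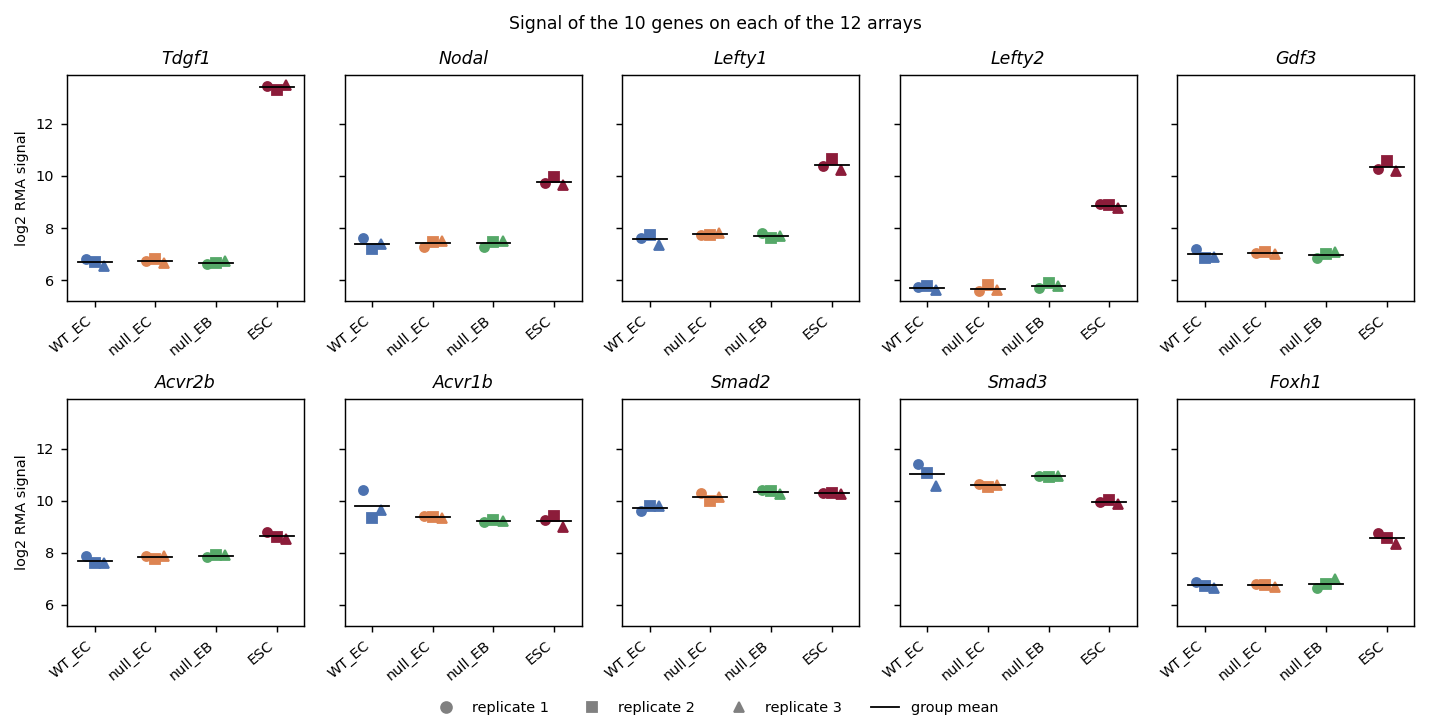
Log2 RMA signal (y axis, the same range in every panel) of the 10 genes on each of the 12 arrays, by group on the x axis; each point is 1 array, its shape gives the replicate number and the black line is the group mean. For Tdgf1, Nodal, Lefty1, Lefty2, Gdf3, Acvr2b and Foxh1 all 3 ESC arrays lie above the other 9, whereas Smad3 is lowest in ESC.

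The co-receptor, the ligands and the inhibitors had one pattern, with high signal in ESC and low signal in the other 3 groups. Tdgf1 had signals of 13.48, 13.30 and 13.50 on the ESC arrays, 6.80, 6.70 and 6.54 on WT_EC, 6.72, 6.79 and 6.66 on null_EC, and 6.62, 6.66 and 6.72 on null_EB. ESC stood far above the rest, and the ranges of WT_EC, null_EC and null_EB overlapped. The group mean was 13.43 ± 0.111 in ESC and between 6.66 ± 0.0499 (null_EB) and 6.72 ± 0.0678 (null_EC) in the others. The signal of Tdgf1 was 104-fold higher in ESC than in null_EC, 107-fold higher than in WT_EC and 109-fold higher than in null_EB (log2 6.70, 6.75 and 6.76, SE 0.0866; limma adjusted p = 2.57e-12, 2.19e-12 and 2.61e-12). Here and for Nodal, Gdf3, Lefty1, Lefty2, Acvr2b and Foxh1 the folds are ratios of signal against groups whose low signal was not shown to lie above background, so they are not ratios of transcript. These are bulk samples, so fewer cells that carry a transcript and less of it per cell cannot be told apart.

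Nodal, the ligand itself, had signals of 9.71, 9.95 and 9.64 in ESC. It had 7.62, 7.18 and 7.37 in WT_EC, 7.28, 7.45 and 7.49 in null_EC and 7.26, 7.47 and 7.50 in null_EB. The 3 groups other than ESC overlapped fully, with means of 7.39 ± 0.221, 7.41 ± 0.111 and 7.41 ± 0.129. ESC, at 9.77 ± 0.162, was 5.12-fold higher than null_EC and null_EB and 5.18-fold higher than WT_EC (log2 2.36, 2.36 and 2.37, SE 0.126; limma adjusted p = 6.12e-08, 7.56e-08 and 8.3e-08).

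Gdf3, a TGF-beta family ligand that can signal through Cripto and can also bind and block BMPs, had signals of 10.27, 10.57 and 10.20 in ESC. On the WT_EC arrays it was at 7.21, 6.85 and 6.89, on null_EC at 7.03, 7.09 and 6.99, and on null_EB at 6.85, 6.999 and 7.07. Only ESC lay outside the shared range. Its mean in ESC (10.35 ± 0.195) was 9.92-fold above that of null_EC, 10.3-fold above WT_EC and 10.4-fold above null_EB (log2 3.31, 3.36 and 3.37, SE 0.120; limma adjusted p = 3.66e-09, 3.83e-09 and 3.52e-09).

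Lefty1 and Lefty2 encode secreted proteins that block Nodal and its co-receptor and are themselves Nodal targets. Lefty1 had signals of 10.40, 10.64 and 10.25 in ESC, 7.63, 7.72 and 7.35 in WT_EC, 7.75, 7.75 and 7.81 in null_EC, and 7.82, 7.60 and 7.71 in null_EB. Lefty2 had 8.93, 8.87 and 8.76 in ESC, 5.72, 5.76 and 5.62 in WT_EC, 5.59, 5.80 and 5.61 in null_EC, and 5.70, 5.91 and 5.76 in null_EB. Both were high on the ESC arrays alone. Against null_EC, WT_EC and null_EB the ESC signal was 6.33-, 7.28- and 6.61-fold higher for Lefty1 (log2 2.66, 2.86 and 2.72, SE 0.118; limma adjusted p = 1.57e-08, 1.16e-08 and 1.56e-08). For Lefty2 it was 9.10-, 8.89- and 8.37-fold higher (log2 3.19, 3.15 and 3.07, SE 0.0867; limma adjusted p = 5.03e-10, 6.22e-10 and 6.66e-10). The ranges of Lefty1 in null_EC and WT_EC did not overlap, null_EC being higher, but this difference did not pass the test (log2 0.20, SE 0.118, adjusted p = 0.316, 95% interval -0.06 to 0.46). Lefty1 and Lefty2 are close paralogs and the probe sequences were not examined, so signal of one may in part come from the other; Tdgf1 likewise has the annotated pseudogenes Tdgf1-ps1 and Tdgf1-ps2.

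Foxh1, the forkhead partner of the SMADs at Nodal targets, had signals of 8.77, 8.59 and 8.32 in ESC. It was at 6.86, 6.74 and 6.64 in WT_EC, 6.80, 6.77 and 6.70 in null_EC, and 6.63, 6.81 and 6.99 in null_EB. Again the groups other than ESC overlapped. ESC, at 8.56 ± 0.227, was 3.49-fold higher than null_EC, 3.51-fold higher than WT_EC and 3.36-fold higher than null_EB (log2 1.80, 1.81 and 1.75, SE 0.123; limma adjusted p = 4.26e-07, 5.12e-07 and 6.33e-07).

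The receptors and SMADs, which also serve other ligands, differed less and not all in one direction. Acvr2b, a type II receptor, had signals of 8.79, 8.62 and 8.51 in ESC, 7.89, 7.59 and 7.59 in WT_EC, 7.88, 7.75 and 7.89 in null_EC, and 7.84, 7.90 and 7.92 in null_EB. It was highest in ESC with no overlap, by 1.74-fold over null_EC, 1.93-fold over WT_EC and 1.68-fold over null_EB (log2 0.80, 0.95 and 0.75, SE 0.101; limma adjusted p = 5.53e-05, 1.71e-05 and 0.000101). Its signal outside ESC was low by the criterion above, as was that of Tdgf1, Nodal, Gdf3, Lefty1, Lefty2 and Foxh1, so for these 7 genes small differences among the other groups cannot be read.

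Acvr1b, the type I receptor also called ALK4, had signals of 10.40, 9.33 and 9.65 in WT_EC, 9.40, 9.37 and 9.35 in null_EC, 9.19, 9.25 and 9.24 in null_EB, and 9.26, 9.43 and 9.002 in ESC. The first WT_EC array stood apart, and groups next to each other in the order of means overlapped. No comparison of Acvr1b passed the test: the log2 difference was -0.42 for null_EC against WT_EC (SE 0.215, adjusted p = 0.249), -0.57 for null_EB against WT_EC (adjusted p = 0.0964) and -0.56 for ESC against WT_EC (adjusted p = 0.0512). Without the second WT_EC array all 3 passed it, at -0.65, -0.80 and -0.80 (adjusted p = 0.0246, 0.00785 and 0.00440). Without the first WT_EC array, the one that stood apart, they shrank to -0.12, -0.26 and -0.26 and did not pass. The size of these differences therefore depended on single WT_EC arrays. The limma call of ESC against WT_EC was gained under 4 of 18 alternatives. Beside the one above, these were removal of dim genes (log2 -0.56, adjusted p = 0.0475), array weights (-0.46, adjusted p = 0.0465) and arrays set equal on housekeeping genes (-0.80, adjusted p = 0.0105). ESC and null_EB differed by 0.0034 (95% interval -0.47 to 0.48).

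Smad2 had signals of 9.62, 9.81 and 9.79 in WT_EC, 10.30, 9.996 and 10.13 in null_EC, 10.41, 10.38 and 10.25 in null_EB, and 10.30, 10.31 and 10.27 in ESC. WT_EC was lowest with no overlap, and the other 3 groups overlapped. Compared with WT_EC, Smad2 was 1.32-fold higher in null_EC (log2 0.40, SE 0.0899, limma adjusted p = 0.0138), 1.53-fold higher in null_EB (log2 0.61, adjusted p = 0.00116) and 1.47-fold higher in ESC (log2 0.56, adjusted p = 0.000397). The call of null_EC against WT_EC did not hold in a fit of only these 6 arrays (adjusted p = 0.142), with array weights (adjusted p = 0.150) and without the first null_EC array (adjusted p = 0.0659). ESC differed from null_EC by log2 0.15 (95% interval -0.05 to 0.35, adjusted p = 0.186) and from null_EB by -0.05 (-0.25 to 0.14, adjusted p = 0.655), and with arrays set equal on housekeeping genes the latter became -0.48 (adjusted p = 0.00111).

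Smad3 ran in another order, with ESC lowest. It had signals of 11.40, 11.07 and 10.56 in WT_EC, 10.66, 10.54 and 10.61 in null_EC, 10.95, 10.91 and 10.94 in null_EB, and 9.93, 10.01 and 9.87 in ESC. Every ESC array lay below every other array. Smad3 was 1.59-fold lower in ESC than in null_EC, 2.10-fold lower than in WT_EC and 1.99-fold lower than in null_EB (log2 -0.67, -1.07 and -0.995, SE 0.163; limma adjusted p = 0.00576, 0.000255 and 0.000434). The null_EB arrays lay above the null_EC arrays with no overlap, yet that difference did not pass the test (log2 0.33, adjusted p = 0.348, 95% interval -0.03 to 0.69). The WT_EC arrays, which spread by an SD of 0.427 for Smad3 against 0.0237 to 0.0712 elsewhere, enter the pooled error: with no WT_EC array in the fit the same difference passed (adjusted p = 0.00137). It also passed without the third WT_EC array (adjusted p = 0.0470), in a fit of only those 6 arrays (0.00168), under array weights (0.000373) and under the housekeeping shift (log2 0.57, adjusted p = 0.0261). Against WT_EC, null_EC differed by log2 -0.40 (adjusted p = 0.142), and without the third WT_EC array by -0.63 (adjusted p = 0.00206). Over all alternatives that difference ran from -0.63 to -0.19.

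**Figure D2:**
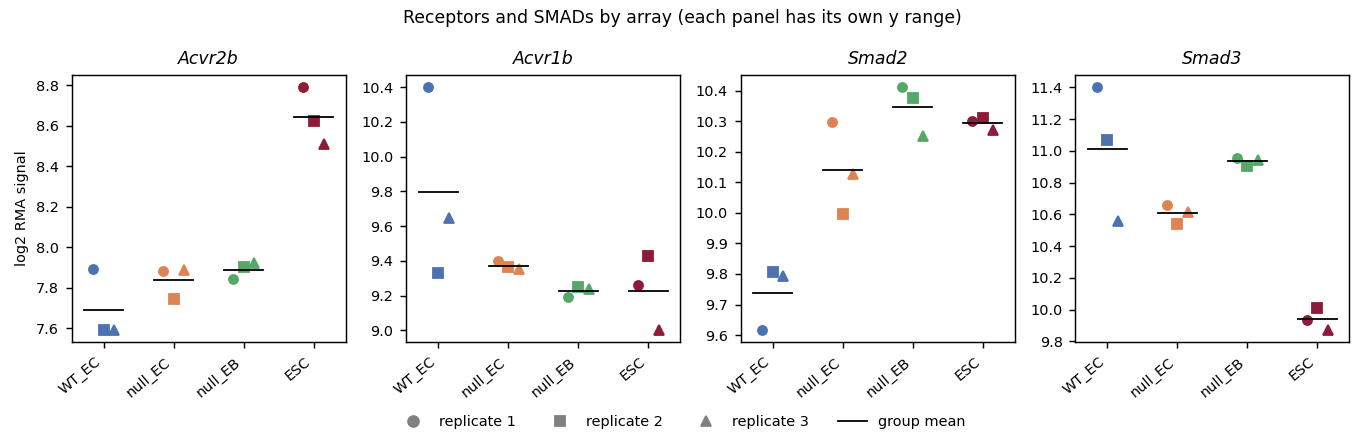
Log2 RMA signal (y axis, a separate range for each gene) of the receptors Acvr2b and Acvr1b and of Smad2 and Smad3 on each array, by group; points are arrays, shapes give the replicate number and lines are group means. Smad2 is lowest in WT_EC (mean 9.74) and Smad3 is lowest in ESC (mean 9.94), and the WT_EC arrays of Acvr1b and Smad3 are the most spread.

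The comparison of null_EC with WT_EC asks what goes with the loss of CD47. Of the 10 genes 1 was higher, Smad2, and 0 were lower, where 13.1% of all genes passed the test (8.12% higher and 5.00% lower). The median difference of the 10 was 0.03, and that of all genes was 0.03 too. Of the genes with low signal in both groups, Tdgf1 differed by 0.04 (95% interval -0.15 to 0.23), Nodal by 0.02 (-0.26 to 0.30), Gdf3 by 0.05 (-0.21 to 0.32), Lefty2 by -0.03 (-0.23 to 0.16) and Foxh1 by 0.01 (-0.26 to 0.28). The largest differences among them were those of Lefty1, 0.20 (-0.06 to 0.46), and Acvr2b, 0.15 (-0.08 to 0.37). Since both groups had low signal for these genes, the values do not show whether their transcripts differed.

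The comparison of null_EB with null_EC sets aggregates of long-passaged CD47 null cells in medium without serum against CD47 null cells in EGM2. Aggregation, passage and medium cannot be told apart in it. In limma's test 0 of the 10 genes passed, against 5.40% of all genes (2.90% higher and 2.50% lower), and 1, Smad2, had an unadjusted p below 0.05. Tdgf1 differed by -0.06 (95% interval -0.25 to 0.13), Nodal by -0.0011 (-0.28 to 0.28), Gdf3 by -0.06 (-0.33 to 0.20), Lefty1 by -0.06 (-0.32 to 0.20), Lefty2 by 0.12 (-0.07 to 0.31) and Foxh1 by 0.05 (-0.22 to 0.32). All 6 had low signal in both groups, so a difference in their transcripts could not be read here; their null_EB signals lay below every ESC array. With the housekeeping shift 3 genes passed, all higher in null_EB: Smad3, Smad2 (log2 0.45, adjusted p = 0.0104) and Lefty2 (log2 0.36, adjusted p = 0.0384). Under that shift 3686 of all 19938 genes were higher in null_EB and 283 were lower, so nothing is read from this count alone. Against WT_EC, null_EB had 1 gene higher, Smad2, and 0 lower, where 18.5% of all genes passed (12.3% higher and 6.19% lower). Acvr2b differed by 0.20 there and passed without the first WT_EC array (log2 0.30, adjusted p = 0.0306).

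ESC against null_EB, against null_EC and against WT_EC share the ESC arrays, and their values are given side by side. Against null_EB, 7 of the 10 genes were higher and 1 was lower, where 44.8% of all genes passed (21.8% higher and 23.0% lower). Against null_EC the counts were again 7 higher and 1 lower, against 47.9% of all genes (22.9% higher and 25.1% lower). Against WT_EC 8 were higher and 1 was lower, against 47.1% (25.4% higher and 21.7% lower). The median difference of the 10 genes was 2.05, 2.08 and 2.09, and that of all genes was -0.08, -0.09 and -0.07. Since the genes were chosen with earlier results of these data known, these counts and medians are descriptive only. The 7 genes higher in every ESC comparison were Tdgf1, Nodal, Lefty1, Lefty2, Gdf3, Acvr2b and Foxh1, and the gene lower in each was Smad3.

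The arrays had been made equal in distribution by the authors, and a shift that sets the median of 22 housekeeping genes equal moves every difference of a comparison by the same amount. It moved the median of all genes from 0.03 to -0.03 for null_EC against WT_EC, from -0.01 to 0.24 for null_EB against null_EC, from 0.02 to 0.20 for null_EB against WT_EC, and from -0.08 to -0.50, -0.09 to -0.27 and -0.07 to -0.31 for ESC against null_EB, null_EC and WT_EC. The percent of calls that were higher moved in the same order from 61.9 to 50.1, 53.7 to 92.9, 66.6 to 87.3, 48.6 to 15.4, 47.7 to 29.5 and 53.9 to 27.0. The 7 genes higher in ESC and Smad3 kept their direction and call under this shift. Against null_EB, Tdgf1 went from 6.76 to 6.34, Smad3 from -0.995 to -1.42 and Acvr2b, the gene nearest the threshold, from 0.75 to 0.33 (adjusted p = 0.0274).

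**Figure D3:**
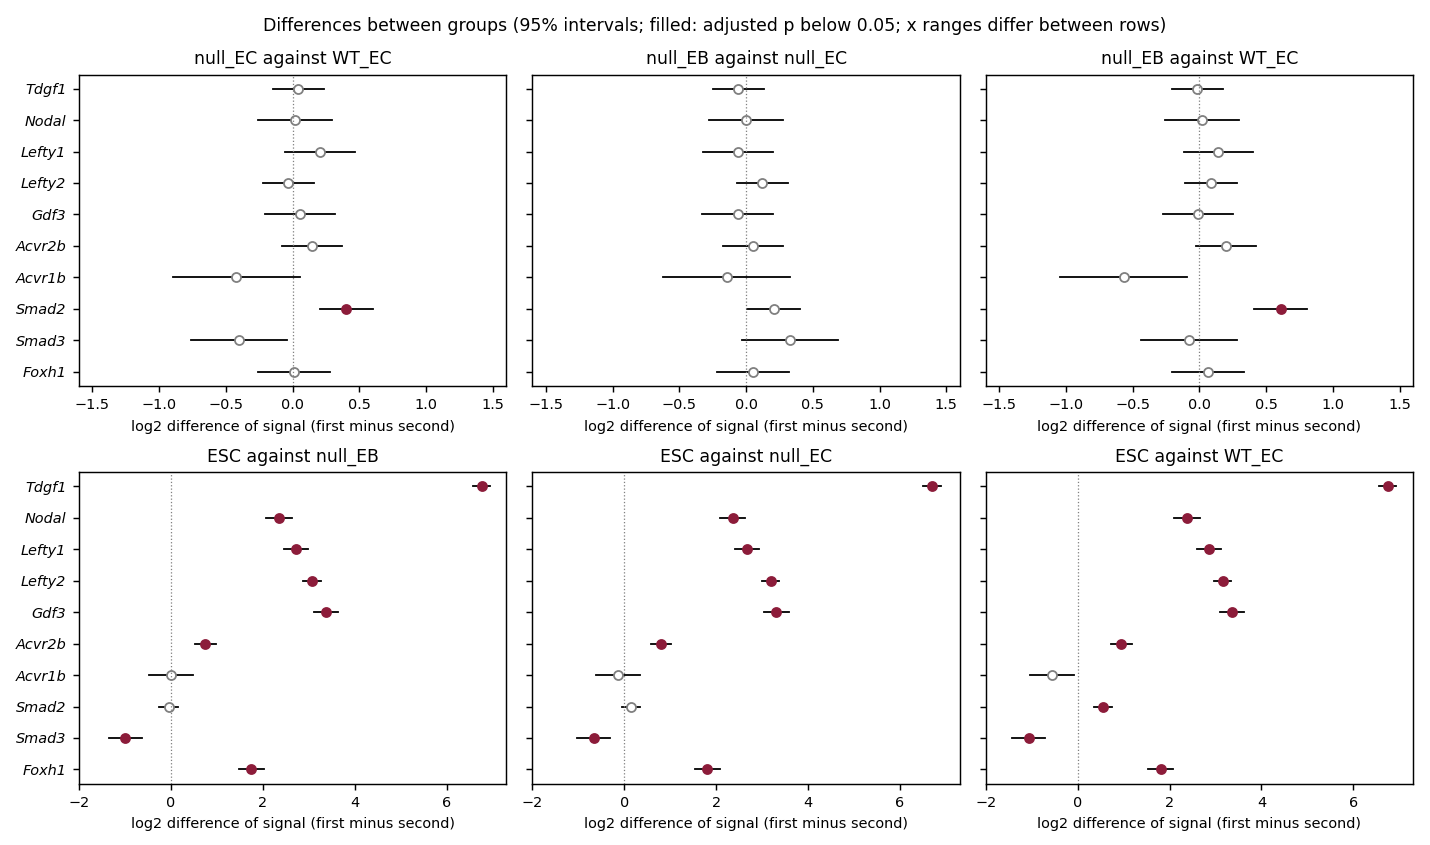
Log2 difference of signal (x axis, first group minus second; the range differs between the rows of panels) for the 10 genes in the 6 comparisons, with 95% intervals from limma; filled points passed the test at an adjusted p below 0.05. In the upper row, among groups other than ESC, only Smad2 is filled, in the comparisons with WT_EC; in the lower row Tdgf1 reaches 6.76 and Smad3 lies at -1.07 to -0.67.

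The other genes of the pathway were read from 5 lists with 76 genes in all. Of the 10 measured among 11 further ligands, processing enzymes, receptors and co-receptors, 0 passed in any comparison among WT_EC, null_EC and null_EB by limma (1 in each had an unadjusted p below 0.05). In each ESC comparison 0 were higher and 2 were lower, where 44.8%, 47.9% and 47.1% of all genes passed against null_EB, null_EC and WT_EC. These were Tmed10, a transport protein of the secretory pathway reported to bind Cripto and other TGF-beta family components, and Furin, a convertase that cleaves the Nodal precursor. Tmed10 was lower in ESC than in null_EB, null_EC and WT_EC (log2 -0.78, -0.93 and -0.93; adjusted p = 6.28e-05, 1.36e-05 and 1.52e-05). For Furin the log2 differences were -0.56, -0.62 and -0.77 (adjusted p = 0.000498, 0.000223 and 4.71e-05). The second Cripto family gene, Cfc1, had low signal in every group, with log2 differences of -0.06, -0.03 and -0.10 (adjusted p from 0.305 to 0.797). With the housekeeping shift 7, 3 and 6 genes of this list were lower in ESC, where 13068, 8281 and 9603 of all 19938 genes were lower.

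Inhibitors and signal transducers made up the second list, with 18 genes measured. ESC had 4 higher and 4 lower against null_EB, 6 and 5 against null_EC, and 6 and 4 against WT_EC. In the same comparisons 44.8%, 47.9% and 47.1% of all genes passed, and nothing is read from the counts alone. Tmeff1, a membrane protein that binds Cripto and blocks Nodal signalling, was 3.34-, 3.84- and 5.88-fold higher in ESC (log2 1.74, 1.94 and 2.56; adjusted p = 0.00206, 0.000905 and 0.000136). Its signals were 11.81, 11.55 and 11.88 in ESC and 10.02, 9.99 and 10.02 in null_EB. Wwtr1, which encodes the transcriptional co-activator TAZ, was lower in each (log2 -1.07, -1.15 and -0.96; adjusted p = 7.09e-08, 3.37e-08 and 1.78e-07). Trim33, a nuclear ubiquitin ligase that acts with SMAD2 and SMAD3, was 2.56-fold higher in ESC than in WT_EC (log2 1.35, adjusted p = 0.000419). Fstl3, a secreted activin antagonist, was lower in ESC than in null_EC (log2 -1.61, adjusted p = 0.00485) and than in WT_EC (log2 -1.27, adjusted p = 0.0186), the latter lost without the third WT_EC or the third ESC array (adjusted p up to 0.102 over the alternatives). The corepressor gene Tgif1 was higher than in null_EC (log2 0.64, adjusted p = 0.0366), a call lost under 10 of 19 alternatives. Zfyve9, the adaptor that brings SMADs to the receptor, was lower than in null_EB (log2 -0.87, adjusted p = 0.00131). Under the housekeeping shift the counts became 2 higher and 10 lower, 2 and 9, and 6 and 9. Those of all 19938 genes were 2387 and 13068, 3472 and 8281, and 3553 and 9603.

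Among groups other than ESC the same list gave 2 higher and 0 lower in null_EC against WT_EC, 1 higher and 2 lower in null_EB against null_EC, and 3 higher and 0 lower in null_EB against WT_EC, where 13.1%, 5.40% and 18.5% of all genes passed. Skil, which encodes the SMAD corepressor SnoN, had signals of 9.92, 9.73 and 10.16 in WT_EC, 10.49, 10.39 and 10.31 in null_EC, 9.93, 9.85 and 9.60 in null_EB and 10.82, 10.77 and 10.82 in ESC. It was higher in null_EC than in WT_EC (log2 0.46, adjusted p = 0.0257), lower in null_EB than in null_EC (log2 -0.61, adjusted p = 0.0137) and 2.02-fold higher in ESC than in null_EB (log2 1.01, adjusted p = 3.15e-05). Smad7, an inhibitory SMAD induced by TGF-beta signals, had signals of 11.16, 11.21 and 11.09 in null_EC and 10.08, 9.96 and 9.96 in null_EB. It was 2.23-fold lower in null_EB (log2 -1.15, adjusted p = 0.0470), and the SMAD corepressor gene Tgif1 was 1.83-fold higher (log2 0.88, adjusted p = 0.0494). These calls lie near the threshold. Those of Smad7 and Tgif1 were lost under 11 and 10 of 19 alternatives, among them without any single null_EC, null_EB or ESC array (adjusted p up to 0.162 and 0.195). Both were kept in the fit of the 6 arrays compared and with no WT_EC array in the fit. The WT_EC arrays, which enter the pooled error, spread by an SD of 0.810 for Smad7 and 0.587 for Tgif1. The calls of Skil were lost with the housekeeping shift among others (adjusted p up to 0.214 against WT_EC and 0.0729 against null_EC). Trim33 was higher than in WT_EC, by log2 0.75 in null_EC and 1.30 in null_EB (adjusted p = 0.0481 and 0.00244), and these calls were lost under 12 and 1 of 18 alternatives, the second in the fit of the 6 arrays compared (adjusted p = 0.0569). After the housekeeping shift the counts of the 3 comparisons became 0 and 0, 3 and 0, and 8 and 0. Those of all 19938 genes were 1022 and 1016, 3686 and 283, and 5206 and 756.

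Nodal target genes of mesoderm and endoderm had 10 genes measured. In ESC 3 were higher and 2 were lower against each other group, which is near the background of 44.8%, 47.9% and 47.1% of all genes. Otx2, a homeobox gene of the epiblast and the anterior embryo, had signals of 11.59, 11.59 and 11.57 in ESC and between 5.85 and 6.08 on the other arrays. Otx2 was 49.7-, 48.1- and 49.5-fold higher than in null_EB, null_EC and WT_EC (log2 5.63, 5.59 and 5.63; adjusted p = 3.25e-12, 3.55e-12 and 3.28e-12). Its signal outside ESC was low, so these folds are ratios of signal and not of transcript. Eomes, a T-box gene of early mesoderm and endoderm, had signals of 7.95, 7.96 and 7.78 in ESC and 6.05 to 6.58 elsewhere, with log2 differences of 1.61, 1.43 and 1.62 (adjusted p = 5.44e-07, 1.17e-06 and 5.52e-07). Hhex, a homeobox gene of anterior endoderm and endothelium, was the other gene that was higher. By the criterion above both Eomes and Hhex had low signal in ESC too (means 7.89 and 7.47). Gata6 ran the other way. This zinc finger gene, known in primitive endoderm and also in adult mesenchymal and mesothelial cells, had signals of 8.74, 8.41 and 8.41 in ESC and 11.76 to 12.79 on the other arrays. It was 15.1-, 16.6- and 14.3-fold lower in ESC (log2 -3.91, -4.06 and -3.84; adjusted p = 8.02e-08, 4.96e-08 and 1.04e-07). Mesothelial markers moved with it, with all 5 lower in ESC in each comparison. Foxa2, a forkhead gene of endoderm, was lower in ESC too (log2 -1.31, -0.92 and -0.65; adjusted p = 5.9e-05, 0.000738 and 0.0072), and the last of these calls was lost in a fit of the 6 arrays compared (adjusted p = 0.0604). Among the other groups 1 call was made, Foxa2 in null_EB against WT_EC (log2 0.66, adjusted p = 0.0181), lost without the third WT_EC array or any single null_EB array (adjusted p up to 0.124 over the alternatives). For null_EC against WT_EC and null_EB against null_EC limma called 0, with 0 and 1 at an unadjusted p below 0.05. There 13.1% and 5.40% of all genes passed, and 18.5% in null_EB against WT_EC. With the housekeeping shift the ESC counts became 3 higher and 7 lower, 3 and 3, and 3 and 4, and null_EB against null_EC had 1 higher. Of all 19938 genes 13068, 8281 and 9603 were then lower in ESC, and 3686 were higher in null_EB than in null_EC.

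The TGF-beta branch, which reaches SMAD2 and SMAD3 through its own receptors, had 13 genes measured. In ESC 2 were higher and 6 lower against null_EB, 3 and 7 against null_EC, and 0 and 9 against WT_EC, where 23.0%, 25.1% and 21.7% of all genes were lower and 21.8%, 22.9% and 25.4% higher. The median of the list was -0.33, -1.11 and -1.32, against -0.08, -0.09 and -0.07 for all genes. Tgfbr2, the type II receptor gene, had signals of 8.91, 8.79 and 8.999 in ESC and 10.80 to 11.36 on the other arrays, a difference of 4.30-, 4.82- and 4.78-fold (log2 -2.10, -2.27 and -2.26; adjusted p = 3.31e-07, 1.56e-07 and 2.14e-07). Tgfbr3, the co-receptor betaglycan, was 4.85- and 5.41-fold lower in ESC than in null_EC and WT_EC (log2 -2.28 and -2.44; adjusted p = 2.44e-07 and 1.91e-07), and Ltbp3, which binds latent TGF-beta, 3.77-fold lower than in null_EB (log2 -1.92, adjusted p = 6.07e-08). Eng, the co-receptor endoglin, was higher in ESC than in null_EB and null_EC (log2 1.61 and 1.62, adjusted p = 0.0461 and 0.0421). Both calls were lost without any single null_EC, null_EB or ESC array (adjusted p up to 0.112 and 0.104). They were kept in a fit of the 6 arrays compared and with no WT_EC array in the fit. The WT_EC arrays spread by an SD of 1.66 for Eng. Ltbp2 was higher than in null_EB (log2 1.05, adjusted p = 0.0213; lost under 5 of 19 alternatives) and Ltbp1 higher than in null_EC (log2 0.89, adjusted p = 0.00998). Between the endothelial groups 3 genes were lower in null_EC and 0 higher, where 5.00% of all genes were lower and 8.12% higher. They were led by Ltbp2 (log2 -1.53, adjusted p = 0.0105) and Ltbp1 (log2 -1.37, adjusted p = 0.00373), which encode latent TGF-beta binding proteins of the matrix. Both calls were lost in a fit of the 6 arrays compared (adjusted p = 0.134 and 0.0791), and Ltbp2 also without the first null_EC array. Fibroblast markers moved the same way, 2 of 6 being lower in null_EC. In null_EB against WT_EC 5 were lower and 0 higher, where 6.19% of all genes were lower and 12.3% higher. Ltbp2 (log2 -1.70, adjusted p = 0.0047) and Tgfb2 (log2 -1.22, adjusted p = 0.0145) led, and 4 of 6 fibroblast markers were lower. In a fit of the 6 arrays compared both calls were lost (adjusted p = 0.0777 and 0.134), and that of Tgfb2 also without the second or the third null_EB array. In null_EB against null_EC limma called 0, where 5.40% of all genes passed, and 4 had an unadjusted p below 0.05. With the housekeeping shift the ESC counts were 0 and 7, 1 and 7, and 0 and 11. Those of all 19938 genes were 2387 and 13068, 3472 and 8281, and 3553 and 9603.

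The BMP branch, which uses SMAD1, SMAD5 and SMAD9, had 20 genes measured. ESC had 2 higher and 10 lower against null_EB, 1 and 11 against null_EC, and 1 and 11 against WT_EC, where 23.0%, 25.1% and 21.7% of all genes were lower. The list medians were -0.47, -0.61 and -0.67, against -0.08, -0.09 and -0.07 for all genes. Bmp7 was the gene that was higher throughout (log2 1.41, 1.39 and 1.38; adjusted p = 4.51e-06, 4.44e-06 and 5.46e-06). Id3, a BMP target that blocks helix-loop-helix factors, was lower (log2 -1.57, -2.82 and -2.80; adjusted p = 0.00496, 7.86e-05 and 9.25e-05). Smad6, the inhibitory SMAD of the BMP branch, was 6.80-fold lower than in null_EC (log2 -2.77, adjusted p = 4.71e-06), and Bmp6 was 5.03-fold lower than in WT_EC (log2 -2.33, adjusted p = 3.19e-07). Against null_EB, Grem1 was lower (log2 -1.90, adjusted p = 9.7e-05) and Id2 was higher (log2 1.01, adjusted p = 0.0276; lost under 5 of 19 alternatives). In null_EB against null_EC 1 was higher and 5 were lower, where 2.90% of all genes were higher and 2.50% lower. Grem1, a secreted BMP antagonist, had signals of 9.37, 9.86 and 9.55 in null_EC and 11.51, 11.59 and 11.45 in null_EB, 3.79-fold higher (log2 1.92, adjusted p = 0.00191). Id2 (log2 -1.73, adjusted p = 0.0129) and Smad6 (log2 -1.43, adjusted p = 0.00891) were the genes most lowered, 3.31- and 2.70-fold. Mesothelial markers moved with them: 2 of 5 were lower in null_EB than in null_EC, with a list median of -0.74, and Muc16, one of the 2, differed by log2 -2.25 (adjusted p = 0.0148). Their part in the result was not tested. Grem1 was called under all 19 alternatives, Smad6 under 18, with the call lost without the second null_EB array (adjusted p = 0.0529), and Id2 under 14. In null_EC against WT_EC 2 were higher and 1 was lower. This is near the 8.12% of all genes higher and 5.00% lower, and nothing is read from the counts. Smad6 and Smad9 were higher (log2 1.24 and 0.81, adjusted p = 0.00874 and 0.0186). Chrd, which encodes the BMP antagonist chordin, was lower (log2 -0.31, adjusted p = 0.0483). These calls were lost under 1, 4 and 15 of 18 alternatives. There too mesothelial markers moved with Smad6 and Smad9, 3 of 5 being higher in null_EC with a list median of 0.62. In null_EB against WT_EC 1 was higher and 3 were lower, where 12.3% of all genes were higher and 6.19% lower. Grem1 was higher (log2 1.13, adjusted p = 0.0111). Among the lower genes were Id2 (log2 -1.92, adjusted p = 0.00256) and Id3 (log2 -1.23, adjusted p = 0.0426). The call of Id3 was lost under 13 of 18 alternatives. Those of Grem1 and Id2 were lost in the fit of the 6 arrays compared (adjusted p = 0.109 and 0.0622). Under the housekeeping shift ESC had 1 higher and 15, 14 and 14 lower, and null_EB against null_EC 1 higher and 4 lower. Of all 19938 genes 13068, 8281 and 9603 were then lower in ESC. In null_EB against null_EC 3686 of them were higher and 283 lower.

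**Figure D4:**
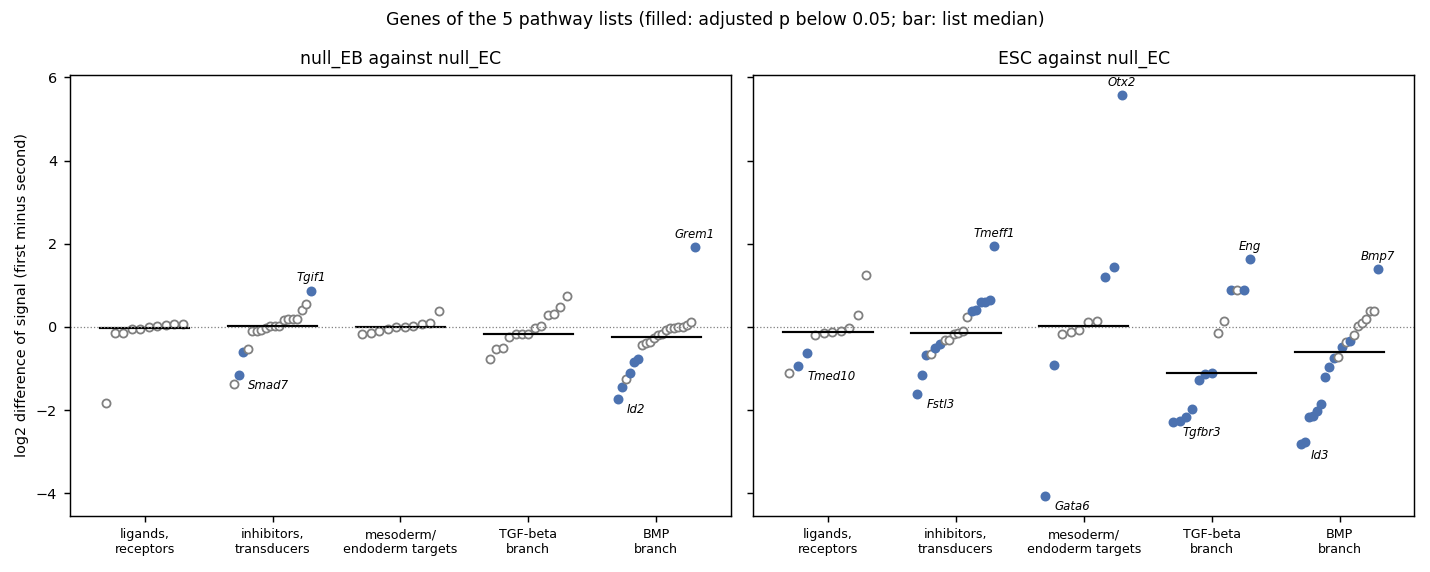
Log2 difference of signal (y axis, first group minus second) for every measured gene of the 5 pathway lists (x axis) in null_EB against null_EC and in ESC against null_EC; filled points passed the test at an adjusted p below 0.05, bars are list medians, and the highest and lowest filled gene of a list is named. In null_EB against null_EC the filled genes lie in the inhibitor list (3) and the BMP list (6); in ESC against null_EC Otx2 (5.59) and Gata6 (-4.06) are the extremes.

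The genes most like each of 6 members over the 12 arrays were sought by the root mean square difference of log2 values after each gene was centred on its own mean. Nearest to Tdgf1 were Zfp640 (0.198), Apela (0.253), which encodes a peptide hormone of early embryos, and Zfp980 (0.276). Nearest to Nodal were Trim71 (0.0783), Cldn4 (0.0932) and Lin28a (0.0933), of which Trim71 and Lin28a act with the let-7 microRNA system. Nearest to Gdf3 were Fgf4 (0.0793), an embryonic growth factor, Neurod1 (0.114) and Ano9 (0.134). Nearest to Lefty1 were Kbtbd8 (0.103), Lrrc31 (0.106) and Mcf2 (0.122), and nearest to Lefty2 were Dnmt3b (0.0949), a DNA methyltransferase, Kcnk1 (0.116) and Grb7 (0.123). Nearest to Foxh1 were Cubn (0.0945), Elf3 (0.0984) and Prss41 (0.102). All 18 genes had their highest group mean in ESC, so the likeness rests on that group. Dnmt3b, for example, was at 7.40, 7.45 and 7.60 in WT_EC, null_EC and null_EB and at 10.58 in ESC.

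Genomic neighbours were read from the order of genes in RefSeq and were chosen after the values were seen. Lefty2 and Lefty1 lie close together. The genes that flank the pair did not share its pattern: Tmem63a had group means of 10.86, 11.34 and 11.07 in WT_EC, null_EC and null_EB and 9.82 in ESC, and Sde2 had 10.13, 10.32, 10.53 and 10.60. Beside Gdf3 lie Dppa3 and Nanog, both known in pluripotent cells. Dppa3 had means of 6.12, 6.13 and 6.07 and, in ESC, 7.95, and Nanog had 6.92, 6.99 and 6.72 and, in ESC, 12.58. On the other side of Gdf3, Apobec1 had 9.59, 8.20, 8.41 and 9.57, so the side with Dppa3 and Nanog was the one that was highest in ESC. Beside Tdgf1, Lrrc2 had 7.53, 7.22 and 6.74 and, in ESC, 9.76, whereas the next gene, Rtp3, stayed between 7.16 and 7.26. Smad3 lies beside Smad6, and Acvr1b beside Acvrl1, another type I receptor gene.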

How the data were processed

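RNA of 12 samples was measured on 1 array each. The authors deposited 1 log2 signal for each probe set and array, made with Affymetrix Expression Console 1.2.1 and RMA, per the submitters' processing notes. RMA equalises the distributions of the arrays, so a change of total RNA cannot be seen, and it compresses differences at low signal. The labels' protocols name a human array, whereas the probe sets match the mouse gene table used here. No genome build of the files is given in the sources used here.

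Of 35556 probe sets, 21789 had 1 gene, 1621 several and 12146 none, and only the first were used. For 999 genes with several probe sets the brightest over 12 arrays was taken, which left 19938 genes. The 12 arrays entered 1 linear model with group means (limma 3.58.1, R 4.3.3, moderated variances). The Benjamini-Hochberg adjustment ran over all genes within each comparison, and "called", "higher" and "lower" mean an adjusted p below 0.05.

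The members and lists were chosen with earlier results of these data known. The 10 members are named in every comparison, with up to 2 called genes of each list that were highest and up to 2 that were lowest, and 3 most alike genes per searched member whose group means span at least 1 log2 unit. Likeness was sought only for Tdgf1, Nodal, Lefty1, Lefty2, Gdf3, Foxh1 and Acvr2b. Smad3, with a span of 1.07, was not searched. Cfc1, Hhex beside the rule, markers and neighbours were named after their values were seen. Promoter letters are from RefSeq, GRCm38.p6. Alternative settings were the removal of dim genes, the mean of all probe sets, a shift to equal medians of 22 of 27 listed housekeeping genes, the 6 arrays alone, no WT_EC arrays, the replicate number as a block, array weights and leaving out each array. No arrays were identical. The fit was tested on simulated data in which a gene had the same spread in every group. That test does not cover the wider spread of the WT_EC arrays. For arrays no depth applies, and their number limits the precision.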

Additional observations from a re-analysis of the deposited data

How the results depend on the processing

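Of 60 member differences under 19 alternatives (1110 values), 1078 stayed on their side of the threshold or within the spread of replicates, 3 lost the call, 20 gained it and 9 moved without a call. Of the 27 called differences 26 were called in every alternative run, the exception being Smad2 in null_EC against WT_EC. A sign changed in 44 values, of which 0 were called before or after. Of 71 differences of named list genes 44 were called in every alternative, and 0 reversed.

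With the 6 arrays alone the genes called fell to 588 in null_EC against WT_EC (from 2615), 870 in null_EB against WT_EC (from 3697) and 6250 in ESC against WT_EC (from 9394), and rose to 5464 in null_EB against null_EC (from 1077); the members called became 0 in null_EC against WT_EC and 1 in null_EB against null_EC. Without the WT_EC arrays in the fit null_EB against null_EC had 5058 genes and 1 member. With array weights it had 8001 genes and 3 members, null_EC against WT_EC had 0 members, and ESC against null_EB had 14866 genes (from 8929). With the housekeeping shift null_EB against null_EC had 3969 genes and 3 members, null_EB against WT_EC 5962 genes and 2 members, and ESC against null_EB 15455 genes. Leaving out 1 array gave 1335 to 5435 genes and 0 to 2 members in null_EC against WT_EC, 390 to 2676 and 0 to 1 in null_EB against null_EC, and 2026 to 6496 and 1 to 2 in null_EB against WT_EC. Beside fewer arrays in a fit, the cause was not tested. The replicate block gave 2239, 764, 3256, 8537, 9149 and 8954 genes and 1, 0, 1, 8, 8 and 9 members in null_EC against WT_EC, null_EB against null_EC, null_EB against WT_EC, and ESC against null_EB, null_EC and WT_EC, and moved no count by over 1.5 times. Whether the numbers pair the samples is not settled by the values. Deviations of same-numbered arrays correlated at -0.256 to 0.225 over 18 pairs, 3 of them above 0.1, and not every array correlated best with its own number. Low signal outside ESC limits what can be seen for 7 members.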
